A study of Mus musculus with 12 samples.

Results

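Collagens, laminins and the other genes of the basement membrane and interstitial matrix were followed in primary hippocampal neurons after knockdown of *Neuid*, a neuron-enriched long noncoding RNA. The 43 genes were chosen by gene symbol from what they encode, and all 43 were found among the 55471 genes of the count table. They comprise 23 collagen chains, 8 laminin chains, 4 linkers and proteoglycans of the basement membrane, 4 genes for fibronectin and elastic fibre proteins and 4 genes for small proteoglycans and periostin. The cultures were wild type and came from hippocampi of late-gestation CD1 embryos of mixed sex, freed of meninges. At day in vitro (DIV) 7 they received gapmers, antisense oligonucleotides that direct RNase H to their target, packed in lipid nanoparticles. The control group received gapmers without a known target and the *Neuid* KD group gapmers against *Neuid*, and RNA was taken from both at DIV 10. Total RNA was sequenced from 6 libraries per group. The labels do not say that the libraries came from separate cultures, so p-values measure the spread between these libraries, which may in part be technical.

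Collagens are trimers of alpha chains. Fibrillar collagens form the rods of the interstitial matrix, whereas collagen IV assembles into the sheet of the basement membrane, the thin layer on which endothelial, pial and glial cells rest. Laminins are trimers of an alpha, a beta and a gamma chain that form the second sheet of that layer, and nidogen, perlecan and agrin tie the sheets together. In brain, fibroblasts and mural cells are known for most fibrillar collagen, while vascular cells and astrocytes both contribute to the basement membrane around vessels. Neurons themselves make some of these proteins, among them agrin and the transmembrane collagens.

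Between 11152556 and 30914714 reads were counted per library. *Neuid* (Gm10419, ENSMUSG00000072769) was at 28.4 ± 2.03 CPM (reads relative to library size) in control and at 8.05 ± 1.13 CPM in *Neuid* KD (SD, n = 6 each), so that 28.4% was left and the groups did not overlap. The libraries differed in background, measured as the reads on 2014 chemosensory receptor genes that are silent in neurons. This background ran from 26.7 to 667 CPM in control and from 27.1 to 617 CPM in *Neuid* KD. At least 100 CPM was found in 4 control and 3 *Neuid* KD libraries, and less in 2 control and 3 *Neuid* KD libraries. Results for some genes are therefore given within both kinds of library as well. Neuronal markers summed to between 6337 and 7483 CPM in control and between 6171 and 7452 CPM in *Neuid* KD.

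Of the 43 genes, 8 were higher after *Neuid* KD, 2 were lower and 33 did not pass the test. *Col16a1* showed the largest rise, to 224% of its control level, and *Col5a1*, *Col5a2*, *Lamb2*, *Col4a1*, *Col4a2*, *Lamc1* and *Col25a1* rose by less. *Fn1*, which encodes fibronectin, and *Lama5*, a laminin alpha chain, fell. The test was edgeR's quasi-likelihood test over 19578 genes with a threshold of 0.05 on the adjusted p, and it called 6.31% of all tested genes higher and 2.42% lower, 8.72% in either direction. Among the matrix genes 23.3% were called. With an absolute log2 fold change above 0.5 as well, *Col16a1*, *Col5a2* and *Lamb2* remained on the higher side and no gene on the lower side, where the same rule called 2.44% and 0.792% of all tested genes (3.23% in either direction). The groups did not overlap for *Col16a1*, *Col5a1*, *Col5a2*, *Lamb2* and *Col4a1*, 5 of 43 genes, against 5.70% of all tested genes. The median log2 fold change of the 43 genes was -0.08, beside -0.03 over all tested genes, and 19 were positive and 24 negative.

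Markers of glia moved with the group as well. All 11 tested astrocyte markers were higher, and the sum of the 12 listed ran from 1858 to 2334 CPM in control and from 3351 to 4058 CPM in *Neuid* KD, without overlap. Of 8 markers of oligodendrocyte precursors 4 were higher, and their sum ran from 141 to 162 CPM and from 302 to 341 CPM. Their part in the results for the matrix genes was not tested, and in bulk RNA a different number of cells of a type and a different amount of RNA per cell cannot be told apart.

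**Figure D1:**
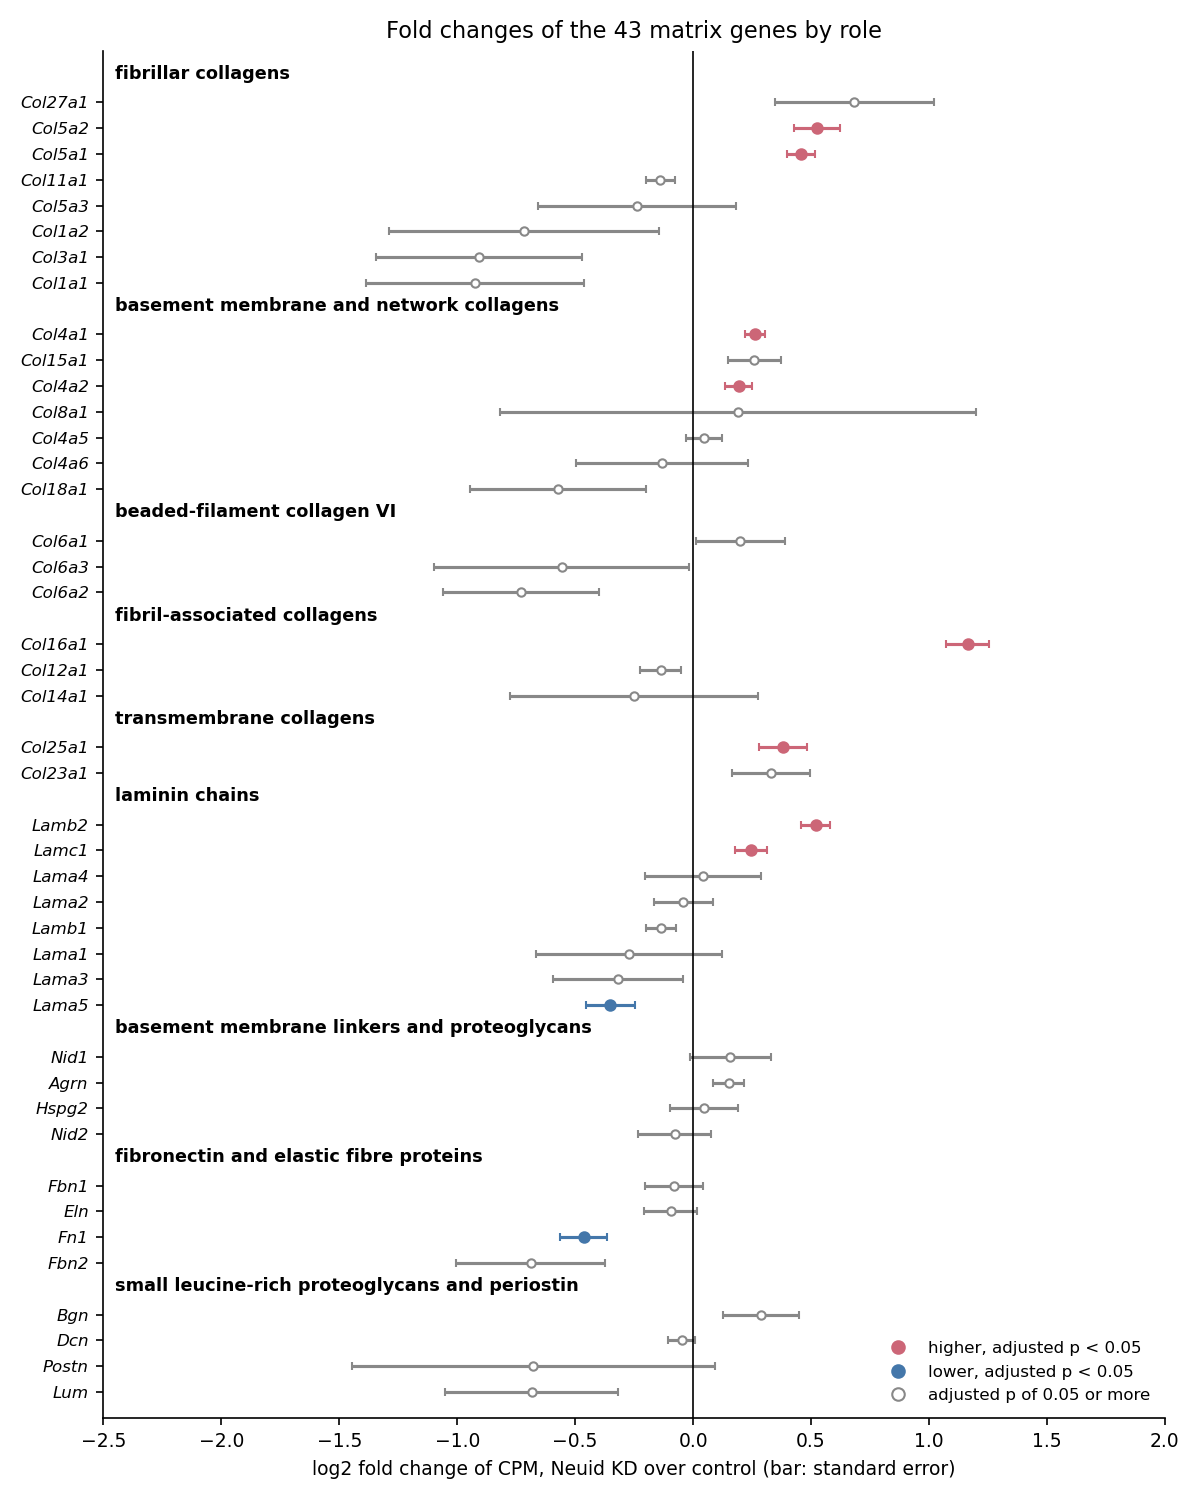
Log2 fold change of CPM in *Neuid* KD over control for the 43 matrix genes, grouped by role, with bars for the standard error (6 libraries per group). The 8 filled red points on the right are the genes called higher and the 2 filled blue points those called lower, while the open points with the widest bars, such as *Col8a1* and *Postn*, belong to genes at the lowest levels.

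Compared per kb of exon, the matrix genes of these cultures were led by the basement membrane. *Agrn*, which encodes agrin, stood at 19.1 CPM per kb in control, followed by *Col4a1* (8.31), *Lamb1* (7.79), *Lamc1* (7.30), *Col4a2* (6.41) and *Fn1* (5.21). The classical fibrillar chains were far below, with *Col1a1* at 0.864, *Col3a1* at 0.571 and *Col1a2* at 0.256 CPM per kb. *Col8a1*, a chain of network-forming collagen VIII, was the lowest at 0.0581 CPM per kb.

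**Figure D2:**
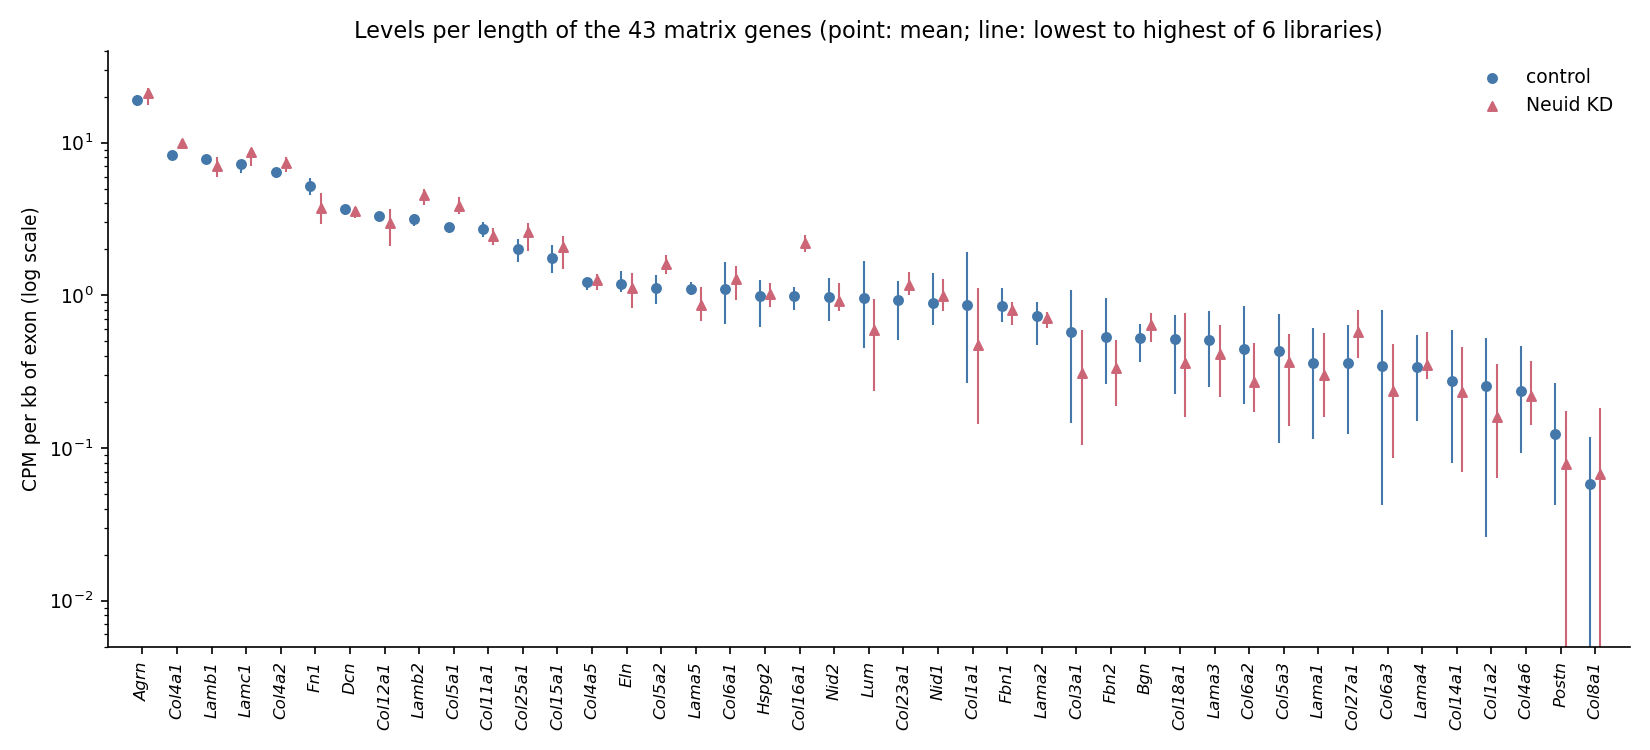
Level per length, in CPM per kb of exon on a log axis, of the 43 matrix genes in control (circles) and *Neuid* KD (triangles), ordered by the control mean. Points are means of 6 libraries and lines run from the lowest to the highest library, cut at the bottom of the axis for genes with a library at 0, and the lines lengthen toward the right where the levels are low.

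The sequences before the starts of 4 genes are printed because *Col16a1*, *Col5a1* and *Lamb2* were the genes called under every alternative setting tried and *Lama5* is a laminin chain that moved the other way. They were read from the RefSeq promoter table of GRCm38.p6, in which 29 of the 43 genes were found, and stop before the first annotated base of the gene. Capitals mark matches on either strand to the GC box GGGCGG, which Sp1-type factors recognise, and to the sequence CCAAT. The TATA box TATAAA was searched as well. No match overlapped another.
Col16a1, chr4:130047590-130047839, plus strand: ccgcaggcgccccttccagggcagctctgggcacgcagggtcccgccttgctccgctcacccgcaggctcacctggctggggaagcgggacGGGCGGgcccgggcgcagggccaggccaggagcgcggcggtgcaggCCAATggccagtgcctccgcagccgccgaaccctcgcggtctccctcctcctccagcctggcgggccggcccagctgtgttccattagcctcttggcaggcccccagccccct
Col5a1, chr2:27886175-27886424, plus strand: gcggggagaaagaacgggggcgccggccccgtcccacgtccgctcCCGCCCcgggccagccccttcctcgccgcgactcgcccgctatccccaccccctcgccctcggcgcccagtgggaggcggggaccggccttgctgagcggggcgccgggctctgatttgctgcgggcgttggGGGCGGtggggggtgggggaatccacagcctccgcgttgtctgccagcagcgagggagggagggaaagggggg
Lamb2, chr9:108479612-108479735, plus strand: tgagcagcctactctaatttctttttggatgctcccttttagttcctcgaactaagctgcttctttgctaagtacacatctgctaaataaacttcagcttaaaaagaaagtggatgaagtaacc
Lama5, chr2:180225860-180226109, minus strand: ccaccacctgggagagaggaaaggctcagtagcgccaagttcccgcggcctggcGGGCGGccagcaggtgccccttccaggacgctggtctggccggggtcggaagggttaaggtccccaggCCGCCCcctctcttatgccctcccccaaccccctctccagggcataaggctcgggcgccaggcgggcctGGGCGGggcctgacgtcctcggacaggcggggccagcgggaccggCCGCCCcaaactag
The GC box occurred once before *Col16a1*, in 2 places before *Col5a1* and in 4 places before *Lama5*, and the CCAAT box once before *Col16a1*. No TATAAA was found in the 4 windows, and the 124 bases printed for *Lamb2* held none of the motifs. That window ends 126 bases before the RefSeq start of *Lamb2*, so the bases nearest this start were not searched. In windows of 250 bases, 32.7% of all 32851 promoters of the table held a GC box, 33.8% a CCAAT box and 12.4% TATAAA. In the first 124 bases of those windows, the part farthest from the start, these shares were 13.3%, 16.7% and 6.22%. A match is a run of letters and no measured binding site. The window of *Col16a1* also overlaps an exon of the noncoding gene Gm12963.

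*Col16a1*, on chromosome 4 (130047840 to 130099283), encodes a collagen that sits on the surface of other fibrils. Its level lay between 5.37 and 7.60 CPM in control (median 6.65) and between 13.0 and 16.7 CPM in *Neuid* KD (median 14.9), so that the groups lay fully apart. The log2 fold change was 1.16 (standard error 0.0903, edgeR adjusted p = 8.0e-08). It was 1.19 within the libraries with more background and 1.22 within those with less. The other fibril-associated collagens did not pass the test. *Col12a1*, well expressed at 46.9 to 51.5 CPM in control, spread from 32.2 to 55.7 CPM in *Neuid* KD (log2 fold change -0.14, edgeR adjusted p = 0.478), and *Col14a1* was at 1.91 ± 1.37 CPM in control, against 1.63 ± 1.10 CPM after *Neuid* KD (SD, n = 6 each).

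Among the 8 fibrillar chains, 2 were higher, both of them chains of collagen V, which sets the diameter of collagen fibrils. *Col5a1* (chromosome 2, 27886425 to 28039514) was at 21.7 to 24.9 CPM in control (median 24.0) and at 28.8 to 37.4 CPM in *Neuid* KD (median 32.6). *Col5a2* (chromosome 1, 45374321 to 45503282) was at 8.42 to 12.9 CPM in control (median 10.8) and at 13.3 to 17.7 CPM in *Neuid* KD (median 15.4). For both chains all 6 *Neuid* KD libraries lay above the highest control library. The log2 fold changes were 0.46 for *Col5a1* (standard error 0.0601, edgeR adjusted p = 4.4e-05) and 0.53 for *Col5a2* (standard error 0.0993, edgeR adjusted p = 0.00180). The adjusted p of *Col5a2* was 0.122 when offsets for GC content and length were fitted, under which 2.55% of all tested genes were called. Exons of *Col5a1* overlap those of 2810430I11Rik and Gm13372 on the opposite strand, and the strand setting of the counting was not given in the sources used here.

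The third chain of collagen V, *Col5a3*, did not pass the test. It ran from 0.734 to 5.11 CPM in control (median 3.07) and from 0.944 to 3.79 CPM in *Neuid* KD (median 2.33). Its log2 fold change was -0.24, with a standard error of 0.421 and an edgeR adjusted p of 0.857. *Col11a1*, a chain of the related collagen XI and the most abundant fibrillar chain in CPM, was at 34.5 ± 2.59 CPM in control, against 31.2 ± 2.51 CPM after *Neuid* KD (SD, n = 6 each; log2 fold change -0.14, edgeR adjusted p = 0.229). Without *Neuid* KD replicate 6 its adjusted p was 0.0478, and with upper-quartile normalization it was 0.0441. *Col1a1* and *Col1a2*, the chains of collagen I, and *Col3a1*, the chain of collagen III, ran low and wide. *Col1a1* was between 1.76 and 12.5 CPM in control (median 4.60) and between 0.936 and 7.33 CPM in *Neuid* KD (median 2.44), *Col1a2* was at 3.18 ± 2.67 and 1.98 ± 1.36 CPM (SD, n = 6 each), and the groups overlapped for all 3 genes. Their log2 fold changes were -0.93, -0.72 and -0.91 for *Col1a1*, *Col1a2* and *Col3a1*, with standard errors from 0.438 to 0.573 and edgeR adjusted p-values from 0.280 to 0.620.

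In the basement membrane, both common chains of collagen IV were higher. *Col4a1* and *Col4a2* lie head to head on chromosome 8, *Col4a1* from 11198423 to 11312826 on the minus strand and *Col4a2* from 11312805 to 11449287 on the plus strand, so that their first exons share 22 bases. *Col4a1* was at 58.8 to 65.4 CPM in control (median 61.4) and at 72.3 to 77.7 CPM in *Neuid* KD (median 73.7). Its groups did not overlap, and its log2 fold change was 0.26 (standard error 0.0432, edgeR adjusted p = 0.000488). *Col4a2* was at 38.6 to 45.1 CPM in control (median 42.9) and at 42.4 to 53.0 CPM in *Neuid* KD (median 48.7). Here 5 of 6 *Neuid* KD libraries were above the highest control library, and the log2 fold change was 0.19 (standard error 0.0577, edgeR adjusted p = 0.0457). The call of *Col4a1* was lost with the GC and length offsets (adjusted p = 0.485) and without the filter on low counts (0.0603). That of *Col4a2* was lost without any 1 library other than control replicate 1 and *Neuid* KD replicate 1, with adjusted p-values from 0.0302 to 0.243 over the 12 libraries left out in turn. The *Col4a2* call was also lost with the GC and length offsets (edgeR adjusted p = 0.773) and within the libraries with more background (0.442). The same held with upper-quartile normalization (0.159) and with the replicate number as a block (0.0779). It was not called with RLE normalization, after thinning to the smallest library or without the filter on low counts either. Exons of *Col4a2* also overlap those of the antisense gene Gm15419. Per kb, *Col4a1* stood at a median of 1.28 times *Col4a2* in control and 1.33 times in *Neuid* KD.

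The second pair of collagen IV genes showed no called change. *Col4a5* and *Col4a6* lie head to head on the X chromosome with 1308 bases between their starts. *Col4a5* was at 8.17 ± 0.587 CPM in control, against 8.43 ± 0.699 CPM after *Neuid* KD (SD, n = 6 each). Its log2 fold change was 0.05, with a standard error of 0.0761 and an edgeR adjusted p of 0.838. *Col4a6* was at 1.90 ± 1.08 and 1.75 ± 0.679 CPM (SD, n = 6 each). Of the multiplexins, collagens that carry heparan or chondroitin sulphate in basement membranes, *Col15a1* was at 11.1 ± 1.75 CPM in control, against 13.1 ± 2.13 CPM after *Neuid* KD, and *Col18a1* was at 3.64 ± 1.57 and 2.51 ± 1.60 CPM (SD, n = 6 each), with edgeR adjusted p-values of 0.215 and 0.494. *Col8a1* reached at most 1.43 CPM in any library.

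Of the 8 laminin chains, 2 were higher and 1 was lower. *Lamb2*, the beta 2 chain found at synapses and around vessels, rose most. Its level was 17.3 to 20.7 CPM in control (median 19.3) and 23.8 to 30.1 CPM in *Neuid* KD (median 27.7), without overlap, and its log2 fold change was 0.52 (standard error 0.0628, edgeR adjusted p = 1.8e-05). *Lamc1* (chromosome 1, 153218922 to 153332786), the gamma 1 chain shared by most laminins, was at 52.2 to 64.1 CPM in control (median 61.7). In *Neuid* KD it was at 58.2 to 76.2 CPM (median 73.7), with 5 of 6 libraries above the highest control library, and its log2 fold change was 0.24 (standard error 0.0668, edgeR adjusted p = 0.0282). *Lama5* (chromosome 2, 180176373 to 180225859), the alpha 5 chain typical of mature vessels, was at 11.4 to 13.9 CPM in control (median 12.3) and at 7.72 to 12.9 CPM in *Neuid* KD (median 9.55). Of the *Neuid* KD libraries 5 were below the lowest control library and the sixth, replicate 6, lay within the control range. The log2 fold change of *Lama5* was -0.35 (standard error 0.103, edgeR adjusted p = 0.0416).

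*Lamb1*, the more abundant beta chain, was at 72.2 to 80.5 CPM in control (median 77.7) and at 58.8 to 79.6 CPM in *Neuid* KD (median 71.9). Its log2 fold change of -0.14 did not pass (standard error 0.0621, edgeR adjusted p = 0.243). It was called lower with upper-quartile normalization (edgeR adjusted p = 0.0172) and with 1 RUVs factor (0.0488). As a description, *Lamb2* stood per kb at 0.390 to 0.428 times *Lamb1* in the control libraries and at 0.592 to 0.714 times in the *Neuid* KD libraries. In the same way *Lama5* stood at 0.135 to 0.189 times *Lamc1* in control and at 0.0745 to 0.130 times in *Neuid* KD. Neither pair of ranges overlapped, but these ratios restate the levels above and are no separate test. The ranges did overlap for *Lama2* over *Lamc1* (0.0614 to 0.143 in control and 0.0668 to 0.106 in *Neuid* KD). They also overlapped for *Col5a1* over *Col5a2* (2.04 to 3.28 and 2.08 to 3.10). The other alpha chains, *Lama1*, *Lama2*, *Lama3* and *Lama4*, had log2 fold changes between -0.32 and 0.04 and edgeR adjusted p-values between 0.659 and 0.959. The call of *Lamc1* was lost without control replicate 1, 2, 4 or 6 and without *Neuid* KD replicate 2, 3, 4, 5 or 6 (adjusted p from 0.00303 to 0.175 over all libraries left out in turn), and that of *Lama5* without control replicates 1 to 5 or *Neuid* KD replicate 2, 3 or 5 (0.00344 to 0.107). Both calls were also lost with the GC and length offsets (edgeR adjusted p of 0.963 for *Lamc1* and 0.226 for *Lama5*). The same held within the libraries with more background (0.180 and 0.493). Neither gene was called without the filter on low counts, and *Lama5* was not called with the replicate number as a block (edgeR adjusted p = 0.0519).

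The proteins that link the basement membrane showed no called change. *Agrn*, which organises the neuromuscular synapse and is made by neurons, was at 162 to 192 CPM in control (median 177) and at 163 to 212 CPM in *Neuid* KD (median 204). Its log2 fold change was 0.15, with a standard error of 0.0649 and an edgeR adjusted p of 0.205. Without *Neuid* KD replicate 1 its adjusted p was 0.0380. *Nid1* and *Nid2*, the nidogens, and *Hspg2*, which encodes perlecan, had log2 fold changes of 0.16, -0.08 and 0.05. Fibronectin, a matrix glycoprotein bound by integrins, was lower. *Fn1* (chromosome 1, 71585520 to 71653200) was at 53.0 to 68.1 CPM in control (median 60.8) and at 34.3 to 54.7 CPM in *Neuid* KD (median 45.2). Of the *Neuid* KD libraries 5 were below the lowest control library, and the log2 fold change was -0.46 (standard error 0.0994, edgeR adjusted p = 0.00522), or -0.51 and -0.46 within the libraries with more and with less background. The call of *Fn1* was lost with the GC and length offsets alone among the alternatives tried (adjusted p = 0.174), and its exons overlap those of the antisense gene Apol7d. The elastic fibre genes *Fbn1*, *Fbn2* and *Eln* had log2 fold changes of -0.08, -0.69 and -0.10 and edgeR adjusted p-values of 0.833, 0.248 and 0.774.

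The transmembrane collagen *Col25a1* (chromosome 3, 130131501 to 130599877), a neuronal protein whose shed part is found in amyloid plaques, was higher. It was at 21.3 to 30.2 CPM in control (median 25.6) and at 25.2 to 38.5 CPM in *Neuid* KD (median 34.9). Of the *Neuid* KD libraries 5 were above the highest control library, and the log2 fold change was 0.38 (standard error 0.102, edgeR adjusted p = 0.0254). Its call was lost without control replicate 1, 2, 4 or 6 and without *Neuid* KD replicate 2, 3, 4, 5 or 6, with adjusted p-values from 0.00585 to 0.122 over all libraries left out in turn. The call was also lost with the GC and length offsets (edgeR adjusted p = 0.723) and within the libraries with less background (0.0589). *Col25a1* was not called without the filter on low counts either. *Col23a1*, the other transmembrane collagen, was at 5.34 ± 1.44 CPM in control, against 6.72 ± 1.03 CPM after *Neuid* KD (SD, n = 6 each; log2 fold change 0.33, edgeR adjusted p = 0.312). Within collagen VI, which forms beaded filaments, *Col6a1* was at 2.82 to 7.24 CPM in control and at 4.09 to 6.79 CPM in *Neuid* KD (log2 fold change 0.20), while *Col6a2* and *Col6a3* had log2 fold changes of -0.73 and -0.56. No collagen VI chain passed the test (edgeR adjusted p from 0.237 to 0.712). Of the small proteoglycans, *Dcn* (decorin) was at 21.6 ± 1.24 and 20.9 ± 1.16 CPM and *Bgn* (biglycan) at 3.18 ± 0.603 and 3.89 ± 0.619 CPM in control and *Neuid* KD (SD, n = 6 each). *Lum* (lumican) and *Postn* (periostin) both had log2 fold changes of -0.68 with adjusted p-values of 0.356 and 0.768.

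**Figure D3:**
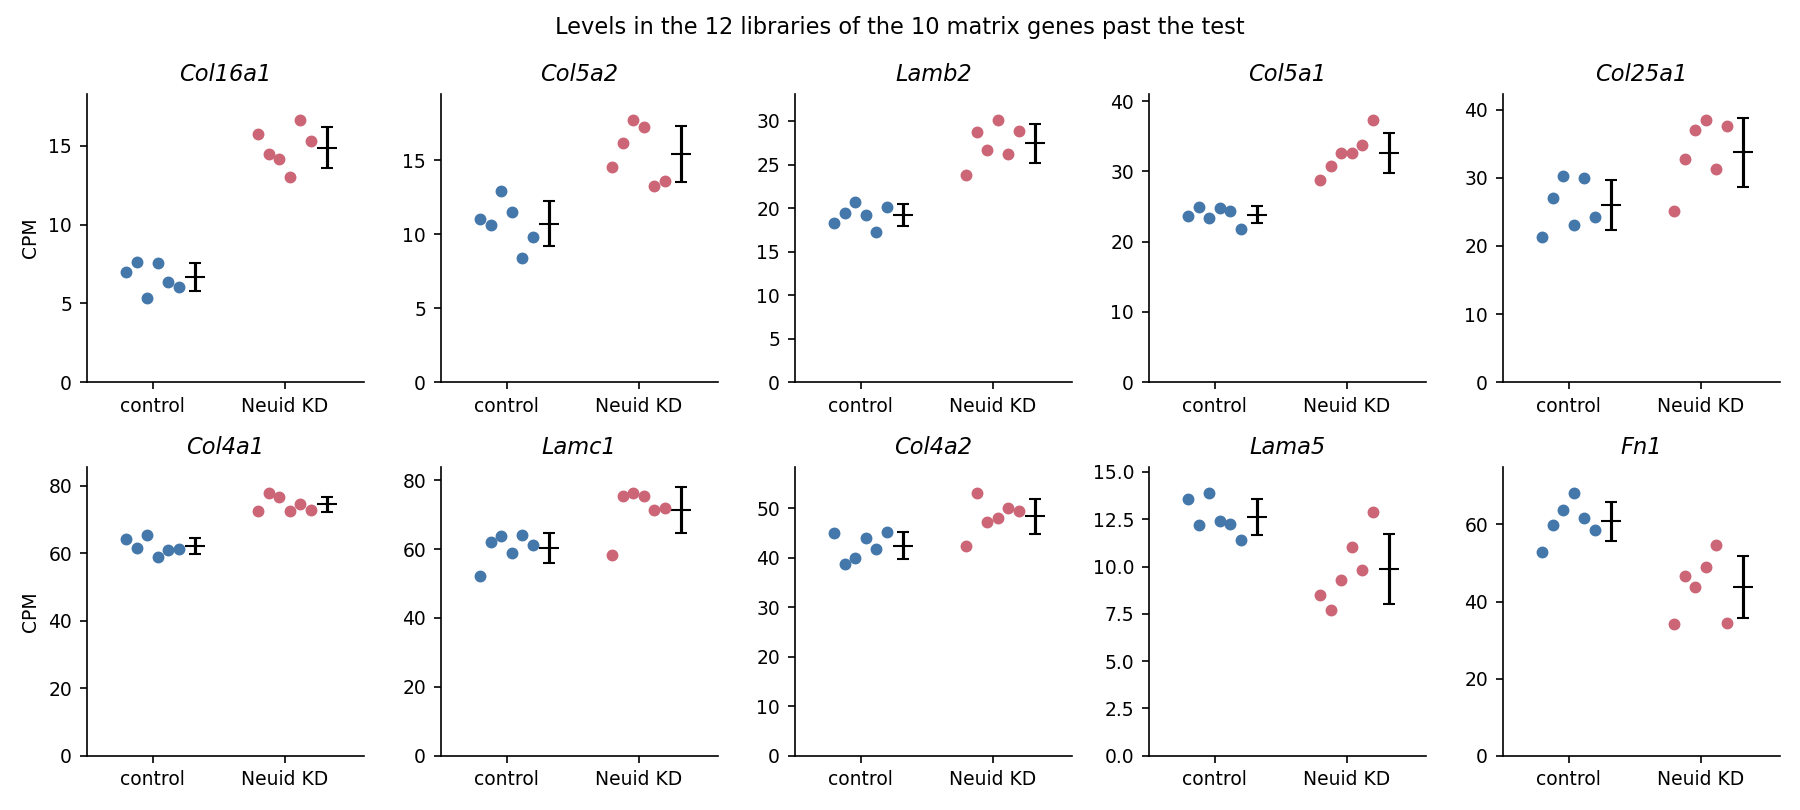
CPM in each of the 12 libraries for the 10 genes past the test, control in blue and *Neuid* KD in red, with the mean and SD in black and axes that start at 0. The groups are apart for *Col16a1*, *Col5a2*, *Lamb2*, *Col5a1* and *Col4a1*, and share part of their range for *Col25a1*, *Lamc1*, *Col4a2*, *Lama5* and *Fn1*.

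For single genes the exact permutation test over all arrangements of 6 against 6 libraries gave p = 0.00216, the smallest it can give, for the 5 genes without overlap. It gave 0.00433 for *Fn1*, 0.0108 for *Col4a2*, 0.0130 for *Lamc1* and 0.0173 for both *Col25a1* and *Lama5* (two-sided exact permutation tests, raw p).

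Background reads were set beside the matrix genes because many of them were at low levels. The reads expected on each gene from the density per kb on the silent receptor genes made up less than 5% of the reads counted for 24 genes, and all 10 called genes were among these. For the other 19 genes the share ran from 5.31% to 74.0%, and no gene was called. It reached 21.1% for *Col1a2*, 44.0% for *Postn* and 74.0% for *Col8a1*. The share of all tested genes called at such background shares was not computed (8.72% over all), so this split is only a description. These shares pool the 12 libraries, and in single libraries they reached 13.7% for *Lama5*, 10.7% for *Col16a1* and 9.59% for *Col5a2*. The median standard error of the log2 fold change was 0.0948 in the first set and 0.374 in the second. For 16 of the 43 genes (37.2%) every control library with more background was above both control libraries with less. This order was shown by 24.6% of all tested genes. None of the 16 passed the test, but genes picked for such a split spread widely within control, which made a pass less likely beforehand. The share called among all genes of this order was not computed, so no conclusion is drawn. For *Col1a1* the step between the 2 kinds of control library was larger than the silent density gave. It averaged 7.34 CPM in the control libraries with more background and 2.33 CPM in those with less, a difference of 5.01 CPM, where the silent density accounted for 0.476 CPM. *Col3a1* averaged 7.21 and 2.38 CPM, *Col27a1* 6.09 and 1.81 CPM and *Fbn2* 8.56 and 4.00 CPM. The silent density accounted for 0.711, 0.944 and 0.958 CPM in these genes, so their steps were larger than it gave as well. Other genes showed no such step, such as *Col5a1* (23.8 and 23.9 CPM) and *Dcn* (21.5 and 21.8 CPM). Where the step was larger, the shares above do not cover all of it.

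Within one kind of library the low genes could be read more closely. *Col27a1*, a fibrillar collagen of cartilage, was at 1.62 and 2.00 CPM in the 2 control libraries with less background and at 5.04 to 6.87 CPM in the 3 *Neuid* KD libraries with less (log2 fold change 1.61, edgeR adjusted p = 6.7e-07, where 9.94% of all tested genes were called). Within the libraries with more background it was at 3.44 to 8.30 CPM in control and 7.83 to 10.4 CPM in *Neuid* KD (log2 fold change 0.63, edgeR adjusted p = 0.111, where 5.25% of all tested genes were called). Over all 12 libraries its log2 fold change was 0.68 (standard error 0.338, edgeR adjusted p = 0.296). With log2 of the background as a covariate 14.1% of all tested genes were called, and among the matrix genes 10 were higher and 6 lower. This fit kept the 10 called genes and added *Col27a1* (log2 fold change 0.95) and *Agrn* (0.13) on the higher side and *Col1a1* (-0.71), *Col3a1* (-0.66), *Col6a2* (-0.64) and *Fbn2* (-0.55) on the lower side. The 4 lower genes and *Agrn* were not called within either kind of library. A test of whether the fold change differed between the 2 kinds of library called none of the 43 genes (edgeR interaction, smallest adjusted p = 0.738).

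**Figure D4:**
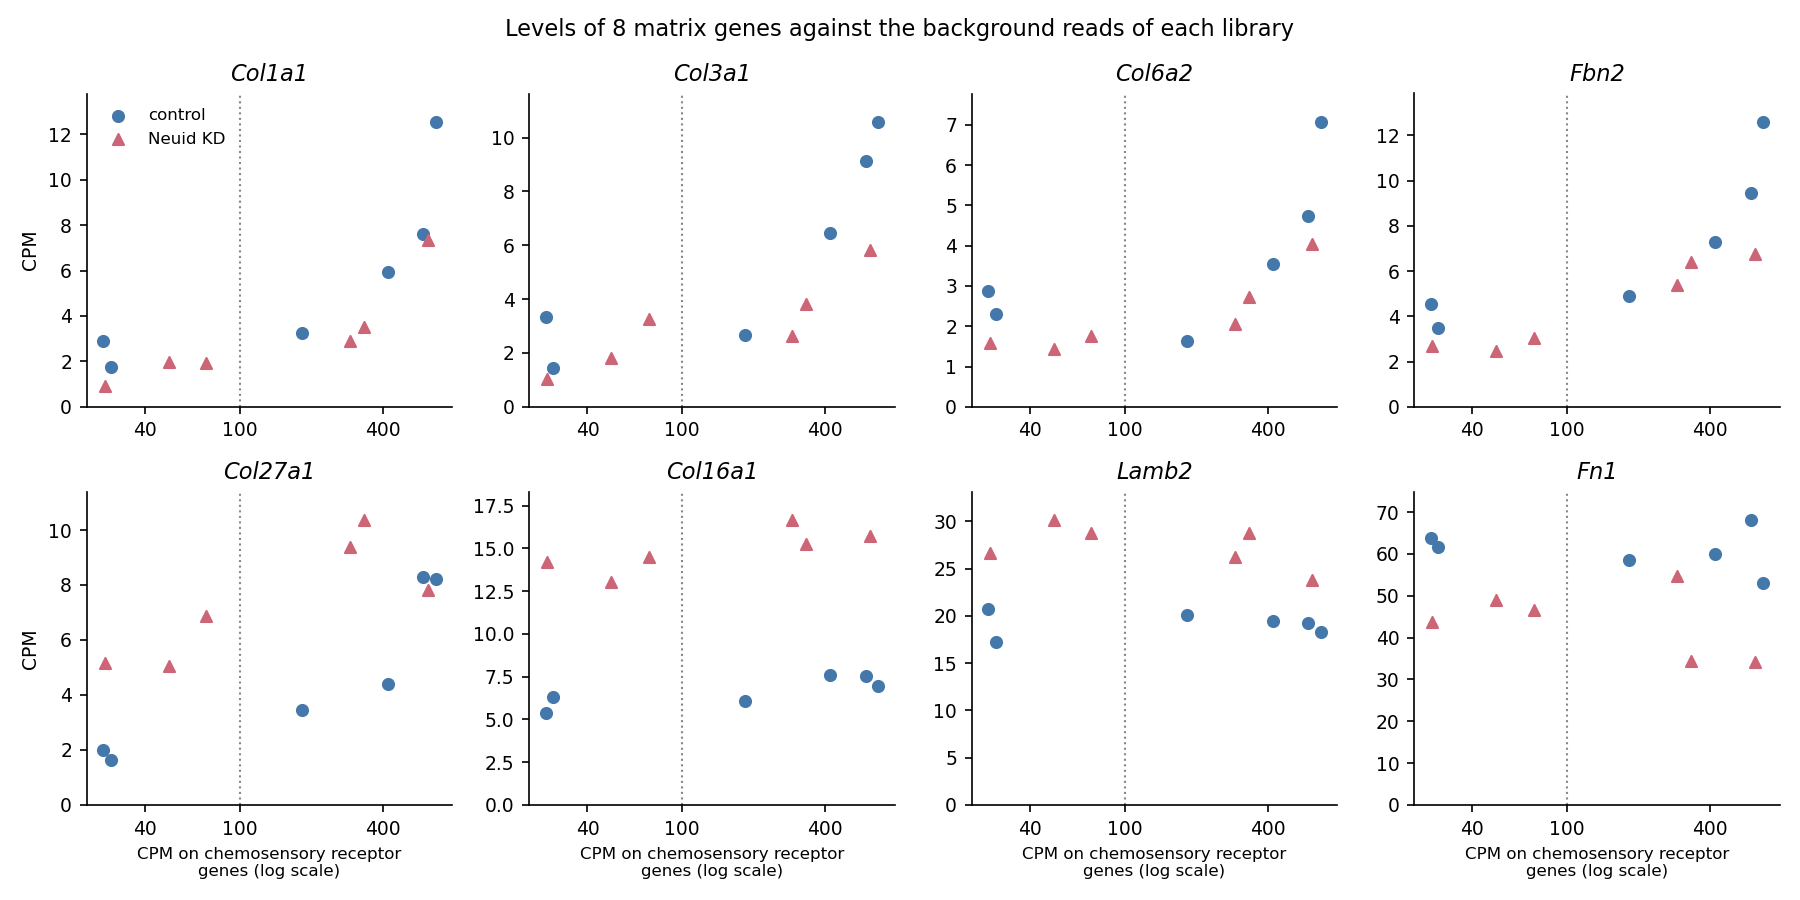
CPM of 8 matrix genes in each library against the CPM on chemosensory receptor genes in that library (log axis), with control as circles, *Neuid* KD as triangles and a dotted line at 100 CPM of background. In both groups *Col1a1*, *Col3a1* and *Fbn2* are highest in the library with the most background, whereas *Col16a1* and *Lamb2* keep the 2 groups apart on either side of the line.

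Genes that bind, fold, process and cut the matrix were taken as a second list of 135 genes, of which 128 were tested. Of these 27 were higher, 7 lower and 94 not past the test, with a median log2 fold change of -0.07. The calls made up 26.6% of the tested genes of the list. Over all tested genes the share was 8.72%, with 6.31% higher and 2.42% lower. These calls came from the same libraries in which the glial markers were higher. Matrix receptors had the most calls in number, with 9 of 28 higher and 1 lower (35.7%). By share they came after the other elastic fibre and fibulin proteins (38.5%). *Itgb5* and *Itgb8*, beta chains that pair with the integrin alpha v chain, rose from 13.7 ± 1.78 to 32.1 ± 3.25 CPM and from 24.5 ± 2.18 to 50.6 ± 1.79 CPM (SD, n = 6 each; log2 fold changes 1.22 and 1.05). *Itgav* itself rose by a log2 fold change of 0.43, and the laminin-binding *Itga6* and *Dag1* (dystroglycan) by 0.38 and 0.24. *Sdc4*, a heparan sulphate receptor, and *Lrp4*, an agrin receptor, had log2 fold changes of 0.77 each. *Itga4*, a fibronectin-binding integrin chain, was the receptor that fell (-0.45).

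Of the 20 genes for collagen folding and secretion, 4 were higher and 1 was lower. *Serpinh1*, the collagen chaperone HSP47, rose from 31.0 ± 2.77 to 43.7 ± 2.18 CPM (SD, n = 6 each; log2 fold change 0.49), and the prolyl hydroxylase subunits moved apart, with *P4ha3* at 0.59 and *P4ha2* at -0.60. Among 20 tested proteases and inhibitors 5 were higher and 1 was lower. *Mmp2*, a gelatinase, rose to 4.87 ± 0.531 CPM, a log2 fold change of 1.70, and *Mmp14*, its membrane-bound activator, rose from 27.5 ± 2.17 to 45.9 ± 2.08 CPM (SD, n = 6 each; log2 fold change 0.74). The inhibitors *Timp4* (2.04) and *Timp3* (0.57) rose as well. Of 15 tested genes for collagen processing and cross-linking, *Bmp1*, a procollagen proteinase, was higher (0.33) and *Sparc*, a collagen-binding glycoprotein, was lower (-0.44).

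Of 19 other collagens tested, *Col2a1*, the fibrillar collagen of cartilage, was higher (log2 fold change 0.78) and *Col19a1* lower (-0.28). Among 13 other laminins and basement membrane proteins, *Smoc1* (1.21), *Frem2* (0.84) and *Ntn1* (0.80) were higher and *Npnt*, nephronectin, was lower (-0.31). Of 13 tested genes for other elastic fibre and fibulin proteins, *Ltbp1* (1.51), *Mfap4* (1.07), *Ltbp3* (0.73) and *Fbln1* (0.33) were higher and *Fbln2* was lower (-0.74). *Ltbp1* and *Ltbp3* hold latent TGF-beta in the matrix, where integrins with the alpha v chain can release it.

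Markers of other cell types that make matrix were summed in the same libraries. Of 20 fibroblast and mural markers 13 were tested and none was called. Their sum ran from 160 to 171 CPM in control and from 135 to 163 CPM in *Neuid* KD, of which *Thy1*, which neurons also express, held most. Without *Thy1*, a choice made after its values were seen, the sums ran from 25.0 to 44.3 CPM and from 24.9 to 42.5 CPM. None of the 8 tested endothelial markers was called (sums of 7.73 to 30.0 and 7.16 to 28.1 CPM), nor any of the 4 tested microglial markers (6.60 to 13.6 and 5.80 to 13.1 CPM) or the 6 of choroid plexus epithelium (1.63 to 10.4 and 2.52 to 12.8 CPM). No marker of these lists was at 0 in every library. At 0 in some library were 7 of 20 fibroblast and mural, 7 of 12 endothelial and 6 of 8 microglial markers. Endothelial sums were 14.4 to 30.0 CPM in the control libraries with more background and 7.73 to 9.24 CPM in those with less. In *Neuid* KD they were 15.7 to 28.1 and 7.16 to 9.31 CPM. Microglial sums also lay apart by background in both groups, while choroid plexus sums overlapped. Whether such cells were present was not tested. Of 12 neuronal markers *Slc17a6*, a vesicular glutamate transporter, was lower (log2 fold change -0.34).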

How the data were processed

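Reads of total RNA libraries (SMARTer Stranded Total RNA-Seq Pico v2, 50 bp single reads) were demultiplexed with bcl2fastq, aligned to mm10 with STAR and assigned to genes with featureCounts by the authors, who deposited raw counts per gene for 12 libraries. The annotation release and the strand setting are not given in the sources used here. Gene symbols, positions and exon lengths came from GENCODE vM21 on GRCm38, the same build, and 55230 of 55471 IDs matched.

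Counts were normalized with TMM and filtered with filterByExpr, and 19578 genes were tested with edgeR 4.0.16 (quasi-likelihood test, Benjamini-Hochberg adjustment, threshold 0.05; R 4.3.3). Levels are TMM-scaled CPM. The study's methods used DESeq2 with RUVseq; DESeq2 1.42.0 and a fit with 1 RUVs factor were alternatives here. The depth of 11152556 to 30914714 reads limits the genes near 1 CPM, where 1 CPM is about 11.9 to 30.0 reads. The scripts were tested on simulated data. No 2 libraries of a group agreed within sampling noise (smallest chi-square per degree of freedom 3.38).

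The 43 genes, the second list, the markers and the background measure were chosen with earlier results of these data known. Named genes were those past the test, their partners in the same molecule and, from the second list, those with an absolute log2 fold change above 0.5, at most 4 per role. *Itgav*, *Itga6*, *Dag1*, *Itga4*, *Serpinh1*, *Bmp1*, *Sparc*, *Col19a1*, *Npnt* and *Fbln1* were named after their values were seen.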

Additional observations from a re-analysis of the deposited data

Results flagged for a closer look

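In 4 of 88 groups of 6 libraries, 1 library lay far from the others by Dixon's criterion, which chance meets in about 1 in 20 groups (4.4 here). *Col12a1* was at 46.9 CPM in control replicate 3, where the nearest control library was at 50.4 CPM. *Lama4* was at 6.90 CPM in *Neuid* KD replicate 1 (nearest 3.92 CPM), and *Lamc1* was at 58.2 CPM in the same library (nearest 71.2 CPM). *Neuid* KD replicate 1 had the fewest reads (11152556) and 617 CPM of background. *Dcn* was at 18.7 CPM in *Neuid* KD replicate 5 (nearest 21.0 CPM).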

How the results depend on the processing

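*Col5a1*, *Col16a1* and *Lamb2* passed the threshold in 25 of 25 alternatives, *Col5a2* and *Fn1* in 24, *Col4a1* in 23, *Col25a1*, *Lama5* and *Lamc1* in 13 and *Col4a2* in 8. Against 8 matrix genes higher and 2 lower, there were 4 and 1 without the filter on low counts, 3 and 0 with GC and length offsets, 3 and 0 with the fold threshold as well, 7 and 4 with upper-quartile normalization, 11 and 7 with 1 RUVs factor, and 10 and 6 with background as a covariate. Within the libraries with at least 100 CPM of background 6 were higher and 1 was lower. The share of all tested genes called moved with the setting too. Against 8.72% it was 2.55% with the offsets, 3.23% with the fold threshold, 14.1% with the covariate and 5.25% within these libraries. For the other settings named it is not given here, so these counts, and those of the second list below, may follow changes over all genes. Leaving out 1 library gave 5 to 9 higher and 1 to 3 lower; the most, 9, came without *Neuid* KD replicate 1, and 5 without control replicate 2, 4 or 6 or *Neuid* KD replicates 2 to 6. With the replicate number as a block 7 were higher and 1 lower. Same-numbered libraries had correlations from -0.64 to 0.77, and 2 of 6 pairs correlated best with their own number. These correlations were not adjusted for background, which differed between libraries, so they cannot tell whether the numbers pair the libraries. Against 27 higher and 7 lower of the second list, there were 15 and 4 with the offsets, and 11, 13 and 13 lower with upper-quartile normalization, 1 RUVs factor and background as a covariate; leaving out 1 library gave 20 to 27 higher and 7 to 13 lower, 13 without *Neuid* KD replicate 1. The causes were not tested. Neuid (Gm10419) stayed lower in all, at -1.88 to -1.75 with 1 library left out. The median log2 fold change was -0.09 with upper-quartile normalization, against -0.03 in the main fit, both over the 19578 genes tested. In DESeq2 it was -0.17, but DESeq2 was run without the filter on low counts. That median covers more genes and cannot be set against the other 2.

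The genes that changed sign were never called under the setting. Within the libraries with less background log2 fold changes became 0.70 (*Col1a2*), 0.59 (*Col5a3*), 0.0954 (*Col4a6*), 0.46 (*Col6a3*), 0.20 (*Col14a1*), 0.62 (*Lama1*), 0.14 (*Lama2*), 0.0533 (*Fbn1*) and 0.33 (*Lum*). Within those with more they became 0.000742 (*Col14a1*), 0.14 (*Nid2*) and -0.00253 (*Hspg2*). With 1 RUVs factor they became 0.11 (*Col5a3*), 0.0175 (*Col4a6*), 0.10 (*Col14a1*), 0.0535 (*Lama1*) and 0.0221 (*Lama2*), and with background as a covariate 0.0484 (*Col5a3*), 0.0123 (*Col14a1*) and 0.00705 (*Lama2*). Upper-quartile normalization gave -0.0134 (*Col4a5*), -0.0203 (*Lama4*) and -0.0191 (*Hspg2*), thinning to the smallest library 0.00936 (*Col4a6*), -0.0198 (*Nid1*) and -0.0508 (*Hspg2*), and the offsets 0.00481 (*Dcn*). With 1 library left out the values spanned 0 for *Col4a5* (-0.000302 to 0.0670), *Col4a6* (-0.38 to 0.17), *Col8a1* (-0.42 to 0.52), *Col14a1* (-0.59 to 0.13), *Lama2* (-0.13 to 0.0275), *Lama4* (-0.17 to 0.23), *Nid2* (-0.21 to 0.0177), *Hspg2* (-0.0592 to 0.13) and *Fbn1* (-0.15 to 0.0131).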

Other observations

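The matrix genes were long and rich in GC. Their median exon length was 8.33 kb, against 3.87 kb over all tested genes, and their median GC content was 53.6%, against 48.9%. The 8 genes called higher had a median GC content of 57.9% and the 33 genes not past the test one of 52.6%. Of the 43 genes, 27 overlapped another annotated gene, 13 of them in exons, and in 1 case, *Col3a1*, on the same strand.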
